A study of Mus musculus with 2 samples.

Results

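Gp2, Pigr and Scgb3a1 encode secreted or secretory-surface proteins of mucosal defence, and their levels were followed here through the cells of the mouse cervix. The genes were found by symbol among the 31053 genes of the count matrices, and 3 of 3 were present, each under 1 identifier. They were chosen with earlier results of these libraries already known, their levels among them. Differences by library and by Olfm4, and detection of the genes together, are therefore given as descriptions with counting intervals and without tests.

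Mucosal surfaces are guarded by a mucus gel and by proteins that the epithelium releases into it. The polymeric immunoglobulin receptor, encoded by Pigr, carries dimeric IgA and pentameric IgM from the tissue side of an epithelial cell to its lumen, where its outer part is cut off and leaves with the antibody as secretory component. GP2 is a zona pellucida domain glycoprotein anchored to the membrane by a lipid; it binds the type 1 fimbriae of enterobacteria, is released by the pancreas and serves as an uptake receptor on the M cells of gut lymphoid follicles. SCGB3A1 is a small secretoglobin made by secretory cells of the airways. OLFM4 is a secreted glycoprotein known as a label of crypt base stem cells in the intestine, and Olfm4 splits the cells below.

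Both libraries came from the cervix of ovariectomised C57BL6/129 females operated at 7 to 8 weeks of age, with 2 weeks of recovery and a 15-day experiment. The control group of 9 mice was left untreated. The progesterone group of 9 mice was injected with 100 µg of estradiol (E2) a day on 2 days, in corn oil, and was then given a 25 mg progesterone pellet designed to last 21 days, about 1 mg a day. Each group was pooled into 1 library, so mouse-to-mouse spread cannot be seen and the effects of estradiol, oil, pellet and library cannot be told apart.

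The control library held 5368 cell barcodes and 21658684 unique molecular identifiers (UMIs, each marking 1 captured transcript molecule), and the progesterone library 10853 barcodes and 44811069 UMIs. After filtering, 4579 and 8541 cells remained, with medians of 3733 and 4151 UMIs. The libraries shared 19 barcodes in all, 12 among analysed cells and 0 among mucous luminal-like cells. Mucous luminal-like cells, meaning cells of clusters with luminal keratins and mucous markers, numbered 213 in the control and 1976 in the progesterone library, with medians of 2777 and 4730 UMIs. Levels below are UMIs of a gene per 1000000 UMIs of the cells (CPM), with 95% intervals in brackets that cover counting error only. They were captured at the 3′ ends of transcripts and are set side by side within a gene, not between genes.

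The mucous luminal-like cells fell into 4 clusters, called here by their leading gene, and the libraries were spread differently over them. The Clca1-led cluster had 107 control and 706 progesterone cells, the Tff1-led cluster 5 and 740, the Agr2-led cluster 6 and 527, and the Psca-led cluster 95 and 3. By mucous markers the label held for the Psca-led control cells. The gel-forming mucin gene Muc5b stood there at 4057 CPM and the trefoil factor gene Tff1 at 10492 CPM. It did not hold for the 107 control cells of the Clca1-led cluster, which had 85.4 CPM of Muc5b, 46.0 CPM of Tff1 and 65.7 CPM of Clca1 itself. The basal keratin gene Krt5 did not set these control cells apart. It stood at 2842 CPM in the Clca1-led control cells. In the Psca-led control cells Krt5 was 2520 CPM in 75 cells with at least 2 Olfm4 UMIs and 3843 CPM in 9 with 0. The library ratios of the 3 genes and Olfm4 are therefore also given for cells with a Muc5b UMI among 2000 UMIs drawn from the cell, 43 in the control and 1489 in the progesterone library, a choice made after the clusters were seen. Ranks, shares of all genes and listed genes are given over all 213 control cells.

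The promoters are shown because the 3 genes were detected together in single cells of 1 library, so the stretches before their starts can be compared letter by letter. RefSeq promoter sequences (GRCm38.p6) matched 3 of 3 genes, and each line gives the 250 bases before the RefSeq start, 5′ to 3′ on the gene's strand. Capitals mark matches to 6 motifs searched on both strands: AGAACA (core of the steroid receptor element), AGGTCA (core of the estrogen response element), TGTTTAC (forkhead), ATCCTG (a core bound by ETS factors such as SPDEF), the NF-kB consensus and TATAAA (the box near many gene starts).
Gp2: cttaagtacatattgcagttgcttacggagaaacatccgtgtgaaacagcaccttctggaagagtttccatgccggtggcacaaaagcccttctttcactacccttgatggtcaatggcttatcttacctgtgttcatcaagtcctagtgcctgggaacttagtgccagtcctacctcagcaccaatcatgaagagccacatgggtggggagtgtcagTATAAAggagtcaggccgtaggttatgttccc
Pigr: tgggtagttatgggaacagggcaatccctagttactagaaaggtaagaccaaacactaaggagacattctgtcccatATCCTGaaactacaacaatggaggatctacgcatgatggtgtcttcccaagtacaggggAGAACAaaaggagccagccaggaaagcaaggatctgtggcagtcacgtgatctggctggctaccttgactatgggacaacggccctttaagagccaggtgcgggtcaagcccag
Scgb3a1: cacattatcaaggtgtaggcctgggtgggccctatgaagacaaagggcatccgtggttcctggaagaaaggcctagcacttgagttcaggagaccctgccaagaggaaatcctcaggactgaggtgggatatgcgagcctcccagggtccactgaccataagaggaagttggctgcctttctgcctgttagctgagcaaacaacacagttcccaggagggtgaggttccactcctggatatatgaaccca
The stretches lie at chr7:119459273-119459522 on the minus strand for Gp2, chr1:130826434-130826683 on the plus strand for Pigr and chr11:49663345-49663594 on the plus strand for Scgb3a1. Gp2 held TATAAA from 32 to 27 bases before its start, a motif found in 12.4% of the 32851 promoters of the table. Pigr held AGAACA from 114 to 109 bases before its start and ATCCTG from 173 to 168 bases before it, motifs found in 16.1% and 13.6% of promoters. The Scgb3a1 stretch held none of the 6 motifs, nor did any of the 3 hold AGGTCA (14.0% of promoters), TGTTTAC (3.17%) or the NF-kB consensus (0.140%). The motifs do not overlap in these stretches, a match is a description of letters, and none of the 6 was shared by the 3 genes. In GENCODE mouse release 21 (GRCm38) Gp2 is a protein-coding gene on chromosome 7 from 119442537 to 119459285 (minus strand, ENSMUSG00000030954), Pigr on chromosome 1 from 130826684 to 130852249 (plus strand, ENSMUSG00000026417) and Scgb3a1 on chromosome 11 from 49663610 to 49665118 (plus strand, ENSMUSG00000064057), and no other annotated gene overlaps any of them.

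Gp2 was almost absent from the control library and was carried by mucous luminal-like cells in the progesterone library. The control library held 4 Gp2 UMIs in 2 cells, both in the Psca-led mucous cluster, which made 5.28 CPM [1.44 to 13.5] of mucous luminal-like cells. The progesterone library held 2779 Gp2 UMIs in 517 of 1976 mucous luminal-like cells, at 294 CPM [283 to 305], a ratio of 55.7 [21.7 to 205]. These cells held 97.7% of the Gp2 UMIs of analysed cells, and 87.0% when barcodes left out by the filters are counted too. Squamous-like cells of the same library, assumed here to lack the gene and give the background of free RNA, had 1.43 CPM [0.994 to 2.00] at a median of 4347 UMIs per cell. Among cells with a Muc5b UMI, the Gp2 ratio of progesterone over control was 16.9 [6.60 to 62.1].

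Within the progesterone library Gp2 stood at 384 CPM [364 to 406] in the Clca1-led cluster and 322 CPM [305 to 339] in the Tff1-led cluster. The Agr2-led cluster, which had more Krt5 (1750 CPM, against 464 and 474 in the other two), stood lower at 54.8 CPM [44.4 to 66.9]. A cluster of 39 luminal-like cells led by Prap1, found in the progesterone library, had 11 Gp2 UMIs, all of them in 1 cell. In the control library 0 Gp2 UMIs were counted in the 107 cells of the Clca1-led cluster. The ratio there was at least 39.0-fold against a floor of 3 counts and 31.7-fold by the exact interval. The mucous label did not hold for these control cells, and the Muc5b ratio in the same comparison was 43.7 [29.8 to 66.9].

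Pigr was also higher in progesterone mucous luminal-like cells, but it was not confined to them. In mucous luminal-like cells the control library had 54 Pigr UMIs, 71.3 CPM [53.5 to 93.0], and the progesterone library 3604 UMIs, 381 CPM [369 to 394], a ratio of 5.35 [4.09 to 7.13]. The ratio was 11.9 [5.75 to 29.5] among cells with a Muc5b UMI and 1.74 [1.37 to 2.24] when cells were picked 1 by 1 by keratin and mucous markers in place of clusters. Over all analysed cells Pigr was 53.9 CPM in control cells and 111 CPM in progesterone cells, which gives 2.06 [1.93 to 2.21].

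The control library kept its Pigr elsewhere. Of the 1085 Pigr UMIs of its analysed cells, 46.2% lay in an unnamed cluster led by Sprr2d, Lcn2 and Psca (317 control cells) and 42.6% in an unnamed cluster led by Sprr2d, Psca and Sprr2b (87 control cells), against 4.98% in mucous luminal-like cells. Pigr stood at 252 CPM [230 to 275] and 760 CPM [692 to 832] in these clusters, whose cells had little Muc5b (87.0 and 150 CPM) and much Ltf, the lactoferrin gene (17960 and 33629 CPM). In the progesterone library the same clusters were small, with 28 and 17 cells, and had 407 CPM [338 to 486] and 1231 CPM [1093 to 1382] of Pigr. There the mucous luminal-like cells held 85.1% of the Pigr UMIs of analysed cells, and 73.1% over all barcodes. Gp2 and Scgb3a1 had 0 UMIs in these clusters in both libraries. Squamous-like cells had 0.940 CPM of Pigr in the control and 3.54 CPM in the progesterone library.

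Within the progesterone mucous luminal-like cells the order of Pigr levels was the Clca1-led cluster at 741 CPM [712 to 771], the Tff1-led cluster at 199 CPM [186 to 213] and the Agr2-led cluster at 137 CPM [120 to 155]. The 39 luminal-like cells led by Prap1 had 165 CPM [126 to 213], whose interval overlaps those of the Tff1-led and Agr2-led clusters. Thus Pigr separated the Clca1-led from the Tff1-led cluster, while the Gp2 levels of these clusters differed by much less.

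Scgb3a1 was not detected in the control library, with 0 UMIs over all 5368 barcodes. Its 213 mucous luminal-like cells allow up to 4.87 CPM by the exact interval. In the progesterone library mucous luminal-like cells held 839 UMIs, 88.7 CPM [82.8 to 94.9]. Against a floor of 3 counts this is at least 22.4-fold higher, and at least 6.94-fold higher among cells with a Muc5b UMI. By the exact interval these bounds are 18.2-fold and 5.63-fold. They held 98.5% of the Scgb3a1 UMIs of analysed cells (94.8% over all barcodes), and squamous-like cells stood at 0.211 CPM. The Clca1-led cluster had 128 CPM [116 to 141], the Tff1-led cluster 88.1 CPM [79.5 to 97.4] and the Agr2-led cluster 16.0 CPM [10.6 to 23.1]. The Clca1-led level rests in part on 1 cell with 119 UMIs: without it the cluster had 92.7 CPM [82.7 to 104], whose interval overlaps that of the Tff1-led cluster.

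**Figure D1:**
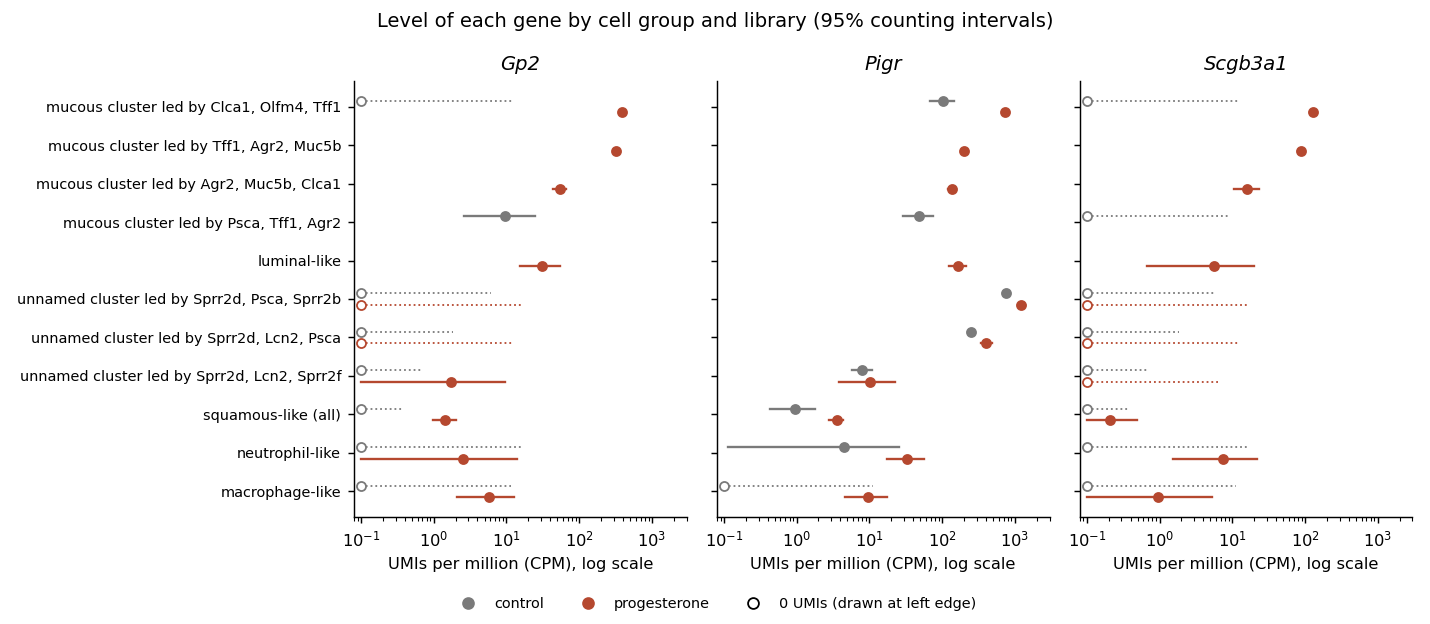
Pooled level of Gp2, Pigr and Scgb3a1 (CPM, log axis) in each mucous cluster and in other cell groups, with the control library in grey and the progesterone library in red; bars are 95% counting intervals, open points at the left edge are groups with 0 UMIs, and groups under 15 cells are not drawn. Pigr reaches 760 and 1231 CPM in the unnamed cluster led by Sprr2d, Psca and Sprr2b, where Gp2 and Scgb3a1 are at 0.

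All 3 genes passed 2-fold higher in progesterone mucous luminal-like cells, against 15.7% of the 11055 genes with at least 20 UMIs (6.99% passed 2-fold lower). The genes were picked with this contrast known, so nothing is read from that count. By log2 ratio with 0.5 counts added, Scgb3a1 was the 1st, Gp2 the 7th and Pigr the 268th of these genes, beside a median of 0.06 over all of them. Olfm4 itself was 1818 CPM in the control and 1604 CPM in the progesterone mucous luminal-like cells, a ratio of 0.882 [0.835 to 0.933]. That ratio depended on the cells compared: it was 0.372 [0.349 to 0.397] among cells with a Muc5b UMI, 0.558 [0.526 to 0.592] against the Psca-led control cells and 7.50 [6.10 to 9.31] in the Clca1-led cluster.

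The genes differed in how evenly they were spread over progesterone mucous luminal-like cells. Pigr was detected in 938 of 1976 cells with at most 24 UMIs in a cell, and 211 cells held 50% of its UMIs. Gp2 was detected in 517 cells with up to 60 UMIs, and 75 cells held 50%. Scgb3a1 was detected in 177 cells, of which 101 had a single UMI, yet 8 cells with 20 or more UMIs held 50.4% of its 839 UMIs. The highest Scgb3a1 cell had 119 UMIs and the next 61, and the 5 highest cells held 41.4%. In the control mucous luminal-like cells Pigr was detected in 42 of 213 cells, 36 of them with a single UMI.

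**Figure D2:**
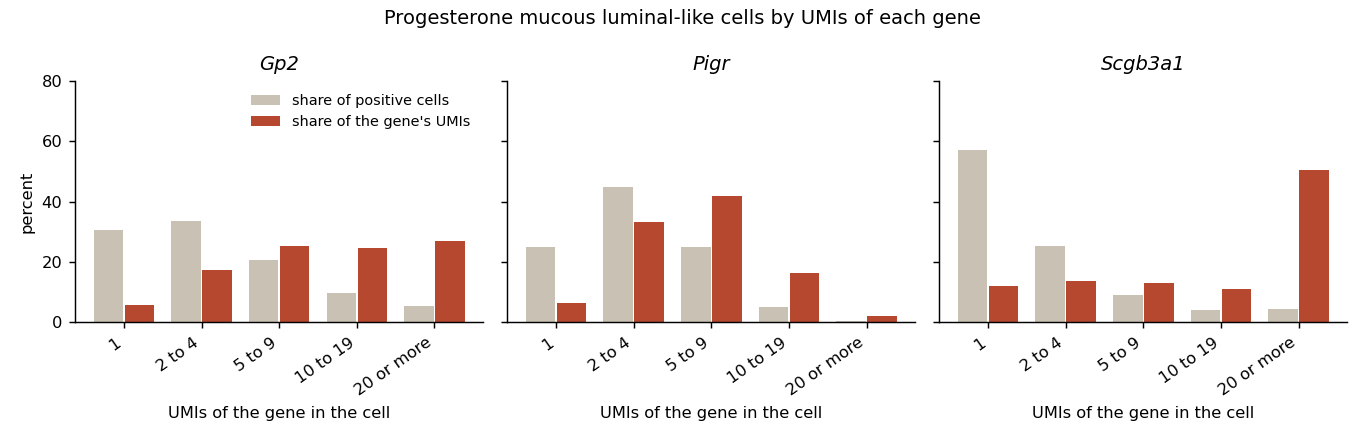
Progesterone mucous luminal-like cells with at least 1 UMI of the gene, binned by its UMIs in the cell; beige bars give the percent of these cells and red bars the percent of the gene's UMIs in each bin. For Scgb3a1 the bin of 20 or more UMIs holds 8 cells and 50.4% of the UMIs, and for Pigr it holds 3 cells and 1.94%.

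Of the progesterone mucous luminal-like cells, 882 had at least 2 Olfm4 UMIs and 916 had 0, with median depths of 4728 and 4870.5 UMIs. Gp2 stood at 460 CPM [440 to 481] in the cells with Olfm4 and 140 CPM [129 to 152] in those without, a ratio of 3.28 [2.99 to 3.59]. Pigr stood at 653 CPM [629 to 678] and 136 CPM [125 to 147], a ratio of 4.81 [4.41 to 5.26]. Scgb3a1 stood at 104 CPM [94.4 to 114] and 62.7 CPM [55.6 to 70.5], a ratio of 1.66 [1.42 to 1.93]. Gp2 and Pigr thus passed 2-fold and Scgb3a1 did not, against 3.75% of 10786 genes that passed 2-fold higher and 1.93% that passed 2-fold lower. The genes were chosen with earlier results of these libraries known, so nothing is read from that count.

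Other features moved with this split, and their part in it was not tested. Krt5 was 393 CPM in the cells with Olfm4 and 1021 CPM in those without, and the chloride channel regulator gene Clca1 was 7874 and 1862 CPM. Of the 916 cells without Olfm4, 398 came from the Agr2-led cluster, against 89 of the 882 with Olfm4. Muc5b differed less, at 8575 and 7159 CPM.

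Inside each cluster the direction held for Gp2 and Pigr. The Gp2 ratio was 2.61 [2.19 to 3.14] in the Clca1-led, 2.40 [2.14 to 2.70] in the Tff1-led and 7.98 [5.15 to 12.4] in the Agr2-led cluster. The Pigr ratio was 2.10 [1.87 to 2.37], 4.12 [3.50 to 4.88] and 10.7 [8.12 to 14.2] in the same clusters. The Agr2-led cells with Olfm4 were shallower than those without, with medians of 1891 and 3149 UMIs.

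The Scgb3a1 ratio turned with single cells. It was 0.486 [0.398 to 0.594] in the Clca1-led cluster, 2.31 [1.79 to 2.98] in the Tff1-led and 12.8 [5.62 to 31.1] in the Agr2-led cluster. The cell with 119 Scgb3a1 UMIs lay in the Clca1-led cluster and had 0 Olfm4 UMIs. Without it the ratio in that cluster was 1.59 [1.17 to 2.19] and that over all mucous luminal-like cells was 2.88 [2.40 to 3.48]. In the Agr2-led cluster the ratio without its highest cell, which had 10 Scgb3a1 UMIs, was 5.84 [2.004 to 16.4]. Leaving out the 10 cells with most Scgb3a1 gave 1.28 [1.04 to 1.59], and taking Olfm4 after thinning each cell to 2000 UMIs gave 1.02 [0.870 to 1.19]. The Gp2 and Pigr ratios without their 10 highest cells were 3.39 [3.08 to 3.75] and 4.92 [4.49 to 5.40].

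**Figure D3:**
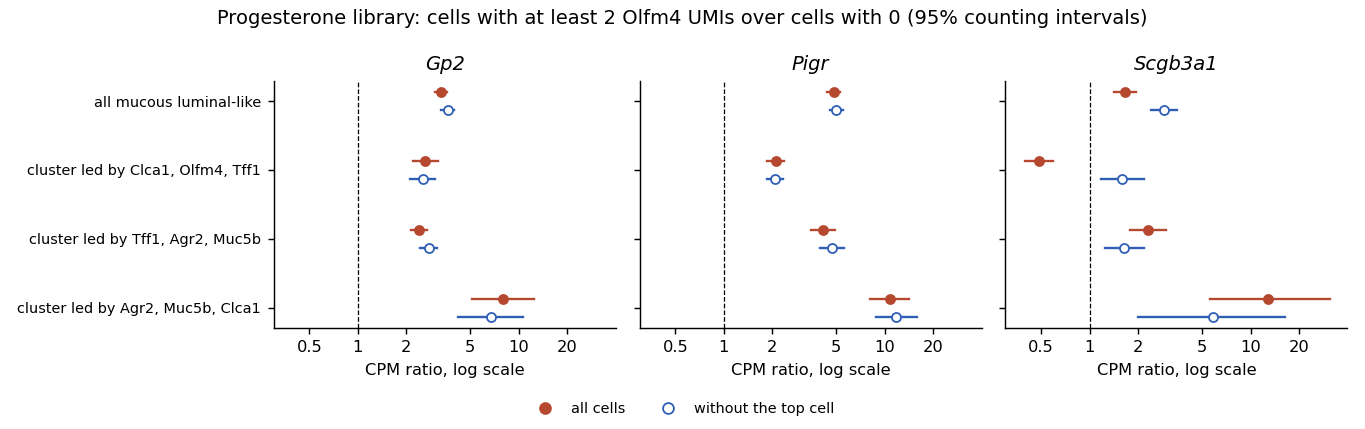
Ratio of the CPM of each gene in progesterone cells with at least 2 Olfm4 UMIs over cells with 0 (log axis), over all mucous luminal-like cells and inside 3 clusters; red points use all cells, open blue points leave out the cell with most UMIs of the gene, and bars are 95% counting intervals. For Scgb3a1 in the Clca1-led cluster the ratio moves from 0.486 to 1.59 without that cell.

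Read by the number of Olfm4 UMIs, Gp2 and Pigr were higher at each step from 0 to 5 to 9 Olfm4 UMIs, and above that they had no single order. In progesterone cells with 0, 1, 2 to 4, 5 to 9, 10 to 19 and 20 or more Olfm4 UMIs, Gp2 stood at 140, 261, 363, 462, 397 and 550 CPM. In the same cells Pigr stood at 136, 286, 570, 623, 730 and 667 CPM. Cells with 1 Olfm4 UMI, which the split leaves out, therefore lay between its sides for Gp2 and Pigr. Scgb3a1 had no such order, at 62.7, 158, 128, 109, 29.7 and 133 CPM. The bins differ in depth, from a median of 3330.5 UMIs at 2 to 4 Olfm4 UMIs to 5965 at 20 or more.

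After thinning each cell to 2000 UMIs, which left 793 progesterone cells with at least 2 Olfm4 UMIs and 743 with 0, the shares of cells with a UMI had the same order. Gp2 was found in 33.7% [30.4 to 37.1] of cells with Olfm4 and 8.88% [6.94 to 11.2] of cells without. Pigr was found in 60.4% [56.9 to 63.8] and 17.6% [15.0 to 20.6]. Scgb3a1 was found in 6.56% [4.94 to 8.51] and 4.04% [2.74 to 5.71], and these intervals overlap. Squamous-like cells of the library, thinned likewise, had a UMI in 0.358% for Gp2, 0.668% for Pigr and 0.0239% for Scgb3a1. Before thinning these shares were 0.638%, 1.51% and 0.0797%. The cells without Olfm4 thus stood above squamous-like cells. Among 123 thinned erythrocyte-like cells Gp2 was found in 2.44% [0.506 to 6.96], Pigr in 3.25% [0.893 to 8.12] and Scgb3a1 in 0 cells. What free RNA or doublets missed by the filter add to these shares was not tested.

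In the control library the Olfm4 split ran the other way for Pigr. The 102 control mucous luminal-like cells with at least 2 Olfm4 UMIs had 22 Pigr UMIs, 49.2 CPM [30.8 to 74.4], and the 85 cells with 0 had 27, 113 CPM [74.8 to 165], a ratio of 0.433 [0.235 to 0.790]. The ratio stayed under 1 in 11 alternatives, but in 4 of the 10 that have an interval it included 1, such as 0.651 [0.2996 to 1.36] with Olfm4 counted after thinning and 0.648 [0.288 to 1.37] with doublets kept. The sides differed in depth, with medians of 4096 and 2129 UMIs, and in makeup: 75 of the 102 cells came from the Psca-led cluster and 70 of the 85 from the Clca1-led cluster, and Muc5b was 4040 and 882 CPM. Inside these clusters the ratio was 0.815 [0.192 to 7.30] and 0.519 [0.172 to 1.32], neither of which can be told from 1 at this depth. The 4 control Gp2 UMIs lay in cells with at least 20 Olfm4 UMIs, and Scgb3a1 was at 0 on both sides. Among all genes of this comparison 9.59% of 4378 passed 2-fold higher and 6.85% passed 2-fold lower.

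**Figure D4:**
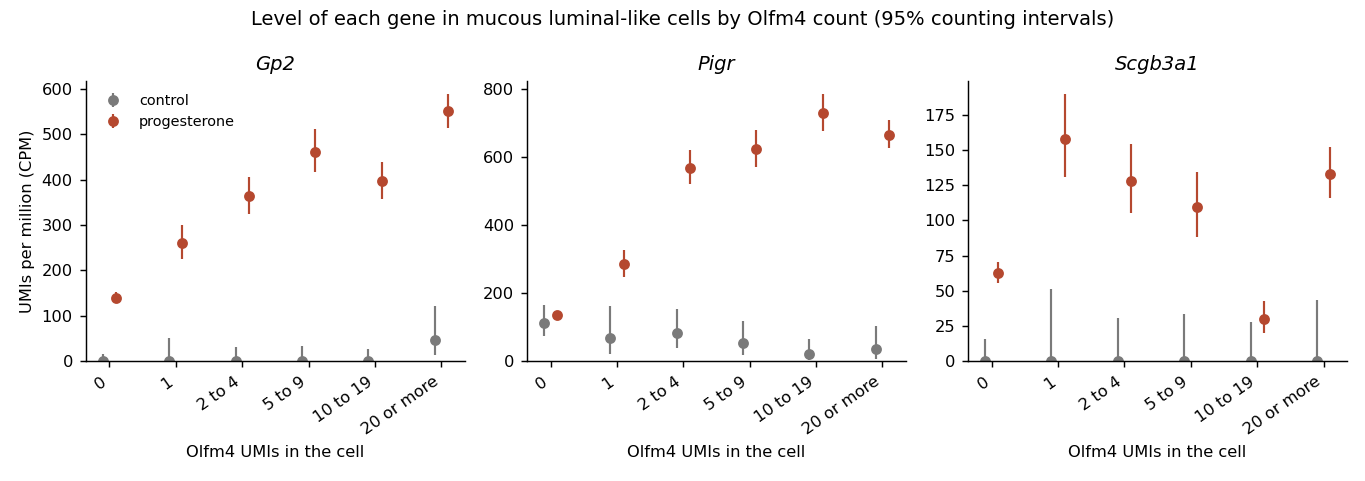
Pooled level (CPM) of each gene in mucous luminal-like cells by the Olfm4 UMIs of the cell, control in grey and progesterone in red, with 95% counting intervals. Progesterone cells go from 140 to 550 CPM for Gp2 and from 136 to 730 CPM for Pigr, while control Pigr stays at or under 113 CPM.

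Cells with a UMI of 1 of the genes held a larger share with another than cells without it. Of 1673 progesterone mucous luminal-like cells thinned to 2000 UMIs (303 shallower ones were left out), 360 had a Gp2 UMI, 664 a Pigr UMI and 92 an Scgb3a1 UMI. Pigr was found in 71.4% [66.4 to 76.0] of cells with Gp2 and 31.0% [28.5 to 33.6] of cells without. Gp2 was found in 70.7% [60.2 to 79.7] of cells with Scgb3a1 and 18.7% [16.8 to 20.7] of cells without. Pigr, too, was found in 70.7% of cells with Scgb3a1, against 37.9% [35.5 to 40.3] of cells without. In 54 cells, 3.23% [2.43 to 4.19], all 3 genes were found, and in 890 cells, 53.2%, none was. Pigr was the gene most often found by itself, in 396 cells, against 92 for Gp2 and 16 for Scgb3a1. Gaps of this form were not particular to the 3 genes. Clca1 was found in 85.3% against 45.2% of cells by Gp2, 84.2% against 33.8% by Pigr and 81.5% against 52.2% by Scgb3a1. For Olfm4 the shares were 75.6% against 41.0%, 74.5% against 31.2% and 60.9% against 47.7%.

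The pairing of Gp2 with Scgb3a1 was seen on both sides of the Olfm4 split. In cells with 0 Olfm4 UMIs, Gp2 was found in 23 of 30 cells with Scgb3a1, 76.7% [57.7 to 90.1], and in 6.03% [4.40 to 8.04] of cells without. In cells with at least 2 Olfm4 UMIs the shares were 67.3% [52.9 to 79.7] and 31.3% [28.0 to 34.8]. Pigr with Gp2 followed the same form, at 68.2% against 12.7% in cells without Olfm4 and 72.7% against 54.2% in cells with it. The narrowest gap was in the Clca1-led cluster, where Pigr was found in 79.0% [72.5 to 84.6] of cells with Gp2 and 63.9% [59.4 to 68.3] of cells without. In the Tff1-led cluster the shares were 61.4% [53.3 to 69.0] and 13.7% [10.96 to 16.9]. In the Agr2-led cluster 2 of 306 thinned cells had Scgb3a1, and 0 of these had Gp2 or Pigr. Among 149 thinned control cells 1 had Gp2 and 15 had Pigr, and 0 had more than 1 of the genes, which allows a share of up to 2.45% by the exact interval.

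**Figure D5:**
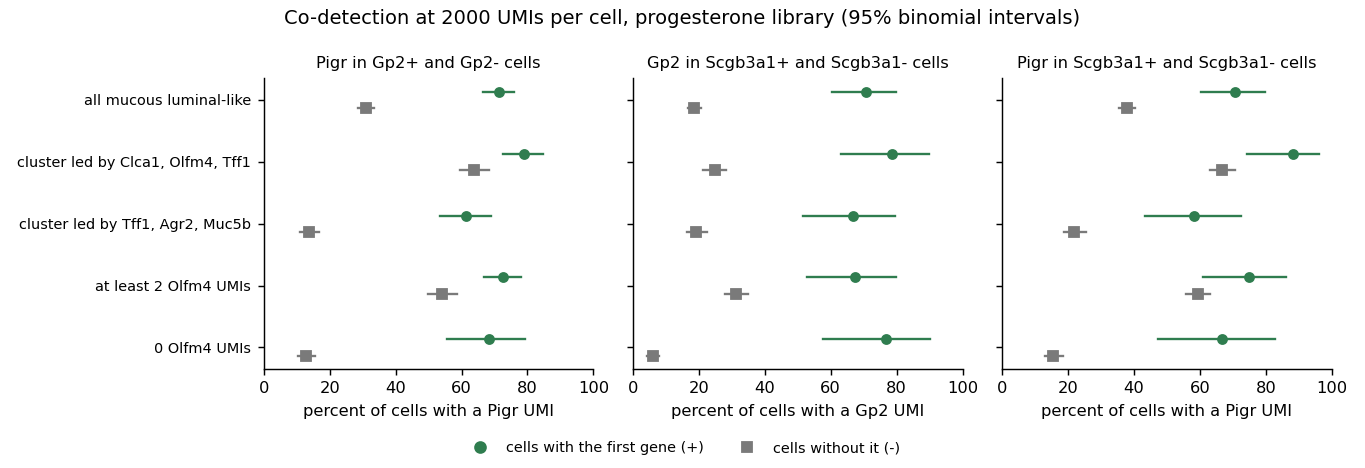
Percent of progesterone mucous luminal-like cells with a UMI of the second gene among cells with (green) and without (grey) the first, each cell thinned to 2000 UMIs, over all cells, inside 2 clusters and on each side of the Olfm4 split; bars are 95% binomial intervals. Gp2 is found in 70.7% of cells with Scgb3a1 over all cells and in 76.7% of those with 0 Olfm4 UMIs.

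Cells chosen by each gene differed in what else they held. The genes named here are the 5 with the highest ratio, by the lower interval bound, between progesterone mucous luminal-like cells with at least 2 UMIs of a gene and cells with 0. For Gp2 (359 cells against 1459) they were Scgb3a1 (383 and 15.0 CPM), Itln1 (55.5 and 4.73 CPM), St8sia6, Trdn and Slpi. Itln1 encodes intelectin 1, a lectin that binds microbial sugars, and Slpi a secreted protease inhibitor with antimicrobial activity. For Scgb3a1 (76 cells against 1799) they were Gp2 (1886 and 197 CPM), Trdn, Itln1, St8sia6 and Otos. Itln1, St8sia6 and Trdn were thus named for both genes. Gp2 and Scgb3a1 were chosen together, so nothing is read from each leading the other's list.

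For Pigr (704 cells against 1038) the 5 genes were Clu (203 and 11.9 CPM), Postn (124 and 8.50 CPM), Cp, Clca1 (9774 and 1047 CPM) and St8sia6. Clu encodes the secreted chaperone clusterin, Postn the matricellular protein periostin and Cp the copper carrier ceruloplasmin. Ltf set the genes apart, at 2802 against 439 CPM by Pigr (6.38-fold [6.09 to 6.69]) but 1332 against 1528 CPM by Gp2 (0.872 [0.834 to 0.911]) and 776 against 1567 CPM by Scgb3a1 (0.495 [0.443 to 0.551]). The clusters differed in Ltf as well, with 3422 CPM in the Clca1-led, 434 CPM in the Tff1-led and 290 CPM in the Agr2-led cluster, and their part in this was not tested. By ratio Muc5b was 0.907 [0.893 to 0.922] by Pigr, 1.53 [1.51 to 1.56] by Gp2 and 1.71 [1.66 to 1.75] by Scgb3a1. Krt5 was lower in cells with any of the 3 genes, at ratios from 0.305 to 0.387. These splits share library and clusters, and cells with Scgb3a1 were deeper than those without (medians of 5842.5 and 4627 UMIs).

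Across 31 groups of at least 50 cells, each a cluster in 1 library, Pearson's r of log2(CPM + 10) was 0.96 between Gp2 and Scgb3a1, 0.62 between Gp2 and Pigr and 0.61 between Pigr and Scgb3a1. The 5 genes most like Gp2 by this measure among 11858 were Rasd1 (0.98), Olfr890, Dscam, Vmn1r38 and Wnt11. Those most like Scgb3a1 were Olfr890 (0.98), Rasd1, Gp2, Aqp8 and Vmn1r38, and those most like Pigr were Rdh10 (0.92), Trpm6, Rhpn2, Cxcl17 and Cfb. The groups share libraries and depth, and r is high for any gene that is seen in the progesterone mucous clusters and little elsewhere.

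Of the 17 genes listed for immunoglobulin transport and supply, 10 had at least 20 UMIs in mucous luminal-like cells. Pigr and Fcgrt passed 2-fold higher with progesterone and Rab11a 2-fold lower, against 15.7% and 6.99% of all genes, and the list's median log2 ratio was 0.00 beside 0.06 over all genes. Fcgrt, which encodes the heavy chain of the neonatal Fc receptor for IgG, stood at 30.8 CPM with progesterone and 7.92 CPM (6 UMIs) in the control, with a ratio of 3.89 [1.76 to 10.7]. Genes of apical recycling and transcytosis were lower or differed little: Rab11a 0.414 [0.352 to 0.488], Rab25 0.502 [0.468 to 0.539], Mal2 0.628 [0.478 to 0.838], Myo5b 0.773 [0.579 to 1.05], Vps35 0.917 [0.736 to 1.15] and Rab3d 1.24 [0.995 to 1.56]. Il17ra and Irf1, the receptor subunit and transcription factor through which cytokines act on Pigr in other epithelia, stood at 1.26 [0.591 to 3.21] and 1.14 [0.663 to 2.12].

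By Olfm4 in the progesterone library, Pigr was the 1 of these 10 genes that passed 2-fold, against 3.75% of all genes higher and 1.93% lower. Pigr was chosen with earlier results of these libraries known. Mal2 was at 1.73 [1.41 to 2.12], Irf1 at 1.64 [1.21 to 2.23] and Fcgrt at 0.908 [0.707 to 1.17], and Rab25 at 0.922 [0.873 to 0.974].

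Transcripts of the IgA cargo were found in few cells. Igha, the IgA heavy chain gene, had 2 UMIs among all control cells and 206 among progesterone cells, of which 203 came from 1 cell. Jchain, which joins IgA into dimers, had 2 and 85 UMIs, of which 79 came from 1 cell. In both cases that cell lay in an unnamed cluster led by Igkc, Tyrobp and Igha. Ighm, the IgM heavy chain gene, was more widespread, with 158 UMIs in 85 control cells and 237 UMIs in 137 progesterone cells. Igkc, the kappa light chain gene, had 15 UMIs in the control and 970 in the progesterone library, 824 of them in 1 cell. Ccl28, a chemokine that draws IgA plasma cells to mucosae, had 10 and 22 UMIs over all cells. How many plasma cells the dissociation with cold protease releases was not measured.

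Among the 16 genes listed for zona pellucida domains and M cells, 6 had at least 20 UMIs, with Gp2 past 2-fold higher and Tnfaip2 past 2-fold lower (0.247 [0.176 to 0.353]), against 15.7% and 6.99% of all genes, and Gp2 was chosen with this contrast known. The transcription factor genes Spib and Sox8, which define M cells, had 0 UMIs in mucous luminal-like cells of both libraries. A floor of 3 counts is 0.317 CPM there in the progesterone and 3.96 CPM in the control library, and the exact interval in the control reaches 4.87 CPM. Tnfrsf11a, the receptor gene for the cytokine that induces M cells, had 93 and 6 UMIs, Ccl20 had 2 and 0, and Umod, the closest listed relative of Gp2, had 4 and 0. Anxa5 (1.72 [1.43 to 2.10]), Marcksl1 (1.12 [0.735 to 1.80]) and Ccl9 (0.678 [0.362 to 1.40]) did not pass 2-fold. The list's median log2 ratio was 0.17.

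Of 34 secretoglobin genes in the files, 4 had any UMI in mucous luminal-like cells and 2 had at least 20. Scgb1a1, which encodes the club cell secretory protein, had 19 UMIs with progesterone and 1 in the control, a ratio of 1.52 [0.242 to 63.3]. Scgb3a2 had 5 UMIs and Scgb1c1 had 1, all in the progesterone library.

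The 30 genes listed as secreted mucosal defence proteins gave 20 with at least 20 UMIs, of which 9 passed 2-fold higher with progesterone and 4 lower (15.7% and 6.99% of all genes), with a median log2 ratio of 0.72 beside 0.06 over all genes. Those higher were Clca1 at 21.2 [18.3 to 24.8], Tff2 at 16.9 [3.003 to 671] on 1 control UMI, Pglyrp1 at 12.6 [9.65 to 16.7], Wfdc18 at 7.69 [6.77 to 8.77], Cp at 6.13 [1.67 to 51.1] on 2 control UMIs, Ctsl at 3.50 [2.30 to 5.61] and Muc5b at 2.86 [2.73 to 2.99]. Against the Psca-led control cells alone Muc5b was at 1.91 [1.82 to 2.01], which does not pass 2-fold. In the control Itln1 and Lyz2 were at 0 UMIs. Against a floor of 3 counts Itln1 was at least 3.79-fold and Lyz2 at least 1.98-fold higher with progesterone, and 3.05-fold and 1.57-fold by the exact interval. Lyz2 is among the 9 by its 74 UMIs against 0, but its bound lies under 2-fold. Pglyrp1 encodes a peptidoglycan recognition protein that kills bacteria. Lcn2, which encodes the iron-scavenging lipocalin 2, was 20.5-fold lower with progesterone, and Ltf was 2.98-fold lower, at 1493 against 4444 CPM. Reg3g (2 against 46 UMIs) and Defb1 (18 against 3 UMIs, ratio 0.481 [0.140 to 2.55]) also passed 2-fold lower and are named after their values were seen. These values are over all 213 control cells, of which 107 did not hold the mucous label. Lcn2 was among the leading genes of unnamed clusters of 1040, 317 and 87 control cells, and the smaller ones were rich in Ltf. What free RNA from them adds to the control levels was not tested. Over these cells the genes of the secreted proteins were therefore not all higher where Gp2, Pigr and Scgb3a1 were.

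By Olfm4 in the progesterone library 18 of these genes could be counted, and 7 passed 2-fold higher and 1 lower (3.75% and 1.93% of all genes), with a median log2 ratio of 0.82 beside 0.08 over all genes. They were Cfb (4.33), Clca1 (4.23), Slpi (4.17), Cp (4.10), Ltf (2.56), Itln1 (2.04) and Fcgbp (2.02), and Tff2 passed 2-fold lower (0.484). Wfdc2 (1.76), Tff1 (1.77) and Pglyrp1 (1.87) were higher by less than 2-fold, and Agr2 (0.813) and C3 (0.535) were lower by less than 2-fold. By Olfm4 in the control library 13 could be counted, and Tff1, Agr2, Muc5b, Clca1, Slpi, Fcgbp and Ltf passed 2-fold higher while Lcn2 and Reg3g passed 2-fold lower, against 9.59% and 6.85% of all genes. In that library Pigr was the 1 gene of 7 in the transport list that passed 2-fold, and it was lower. The sides of this control split were largely different clusters: 75 of 102 cells with Olfm4 were Psca-led and 70 of 85 without were Clca1-led. Inside the Clca1-led cluster Tff1 had 0 UMIs with Olfm4 and 14 without. Clca1 was there at 0.336 [0.0630 to 1.16] and Muc5b at 22.8 [5.66 to 199]. Inside the Psca-led cluster, with 9 cells without Olfm4, Tff1 was at 29.2 [17.7 to 52.2] and Muc5b at 3.35 [2.53 to 4.54]. Clca1 was there at 7.48 [2.04 to 62.4], on 2 UMIs in the cells without Olfm4. The part of the clusters was not tested.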

How the data were processed

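Per the file headers, the deposited matrices hold whole-number UMI counts per gene and barcode; per the submitters' processing notes, the authors used Cell Ranger 3.0.2 and build mm10. Other filters are not given in the sources used here. Cell barcodes were analysed when 200 or more genes were detected and mitochondrial transcripts made up 20% or less. The highest Scrublet scores (0.8% per 1000 cells, scanpy 1.11.5) left out 181 control and 680 progesterone doublets. Cells were clustered together (2000 variable genes, 30 components, 15 neighbours, Leiden resolution 1) without the 3 genes, Olfm4, the listed genes, secretoglobins or mitochondrial genes, but with the mucous markers, some of which are also listed. Clusters were named from markers, with thresholds set after the clusters were seen. Mucous luminal-like clusters needed luminal and mucous scores of at least 1 (mean log2 of CPM + 10 over the median cluster), 3 detected markers and more Krt8 and Krt18 than Krt5 and Krt14. Intervals are exact Poisson for levels, exact conditional binomial for ratios and Clopper-Pearson for shares, at 95%. With 1 library per group no test was possible. Functions were tested on simulated data. Members and lists were chosen with earlier results of these data known. Named are the 3 genes, listed genes with at least 100 UMIs, and the 5 genes per member most alike or most enriched; Spib, Sox8, Tnfrsf11a, Ccl20, Umod, Lyz2, Igha, Jchain, Ccl28 and the other secretoglobins fall outside it and were named after their values were seen. Of 31053 identifiers 30934 were in GENCODE release 21.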

Additional observations from a re-analysis of the deposited data

Results flagged for a closer look

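Pigr went in opposite directions by Olfm4 in the libraries: the ratio of cells with at least 2 Olfm4 UMIs over cells with 0 was 0.433 in control and 4.81 in progesterone mucous luminal-like cells. The difference between the libraries was not tested, since each group is 1 library, and the control value rests on 22 and 27 Pigr UMIs. Its interval included 1 in 4 of the 10 alternatives that have one. The control sides also came largely from different clusters, Psca-led with Olfm4 and Clca1-led without, at median depths of 4096 and 2129 UMIs. Inside these clusters the control ratio was 0.815 [0.192 to 7.30] and 0.519 [0.172 to 1.32], so no direction is shown within a cluster.

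Barcodes left out by the cell filter or as doublets, which enter no comparison above, also carried the genes. In the 2312 left-out progesterone barcodes Gp2 stood at 51.8 CPM, Pigr at 104 CPM and Scgb3a1 at 4.92 CPM. In the 789 left-out control barcodes Pigr stood at 11.7 CPM, and Gp2 and Scgb3a1 were at 0 UMIs, which allows up to 2.39 CPM by the exact interval. Among called doublets of the progesterone library alone the levels were 58.5, 111 and 7.25 CPM.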

How the results depend on the processing

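Of 115 alternatives 0 changed direction. The 8 to the Scgb3a1 lower bound, each with 0 control UMIs, and the 6 to shares of all genes could not change it. The Olfm4 ratio of Scgb3a1 had an interval that included 1 with the stricter filter, 1.11 [0.938 to 1.32], and with thinned Olfm4, 1.02 [0.870 to 1.19]. Of 101 to values with a counting interval, 71 stayed within it and 30 moved outside. All 8 to the Scgb3a1 lower bound moved it past the counting error of its 839 UMIs, and all 6 to shares of all genes moved them over 1.5 times; the causes were not tested. For the library ratios of Gp2, Pigr and Scgb3a1 (the last a lower bound), cells with a Muc5b UMI gave 16.9, 11.9 and 6.94. Pigr and Scgb3a1 gave 4.08 and 11.1 with doublets kept, 3.66 and 12.5 at resolution 2, 3.62 and 18.0 with libraries clustered apart and 1.74 and 9.57 with the per-cell gate. Scgb3a1 alone moved with the stricter cell filter (20.8), the reduced denominator (24.5) and the clusters of 2-fold luminal keratins (11.3). This keratin rule left out the Psca-led and Agr2-led clusters and kept 112 control cells, nearly all from the Clca1-led cluster (107 control cells). The mucous label did not hold for those, so the rule cannot check the library ratios or the control Pigr ratio in mucous control cells. For the progesterone Olfm4 ratios of Gp2, Pigr and Scgb3a1, doublets kept gave 2.53, 3.64 and 1.22, the 2-fold keratin clusters 2.44, 3.83 and 1.17, and means of cells 2.78, 4.30 and 1.24. Gp2 and Scgb3a1 gave 2.90 and 1.11 with the stricter filter and 2.97 and 1.02 with thinned Olfm4. Gp2 gave 2.92 with a Muc5b UMI, Pigr 5.40 with the gate and Scgb3a1 1.28 without its 10 highest cells. The control Pigr ratio ran from 0.294 to 0.721 over 11 alternatives. For co-detection, Gp2 in cells with Pigr, Gp2 in cells with Scgb3a1 and Pigr in cells with Scgb3a1 were 29.8%, 54.8% and 40.3% at 1000 UMIs and 31.2%, 85.7% and 54.3% at 2 UMIs; the first was 44.1% unthinned and the second 57.1% at 4000 UMIs. With genes of at least 1 UMI, 2-fold higher and lower shares were 31.5% and 12.0% by library, 13.4% and 9.97% by Olfm4 with progesterone and 19.97% and 20.8% in the control. The Muc5b, keratin and 10-cell alternatives were chosen after seeing the data. Scgb3a1 could not be given as a mean of control cells at 0, and the control Olfm4 ratio of Pigr with a Muc5b UMI gave no value. No paired analysis was possible because each group is 1 library. The 757893 UMIs of control mucous luminal-like cells limit the library ratios and the control Olfm4 split.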
